A study of Mus musculus with 2 samples.

Results

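Splice junctions over very short introns were described in the adrenal gland of adult mice. A junction was taken when its intron spanned 50 to 100 bases, the authors' score was 0.1 or less, and it had 10 or more reads with at least 1 in each of the deposited counts called R1 and R2. These limits left 7414 of the 378838 junctions in the deposited table. The junctions were thus chosen by their length, reads and score, and their values in those measures are a description. Of all junctions, 24.9% met the limits on score and reads whatever their length, and of the 26097 junctions over 50 to 100 bases 28.4% did.

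The study holds 1 group of 2 libraries, labelled biological replicates 1 and 2, from adrenal glands of C57BL/6J mice at 8 weeks of age. The labels describe littermates of mixed sex under 1 donor record and name no treatment or altered allele. Libraries were made from poly(A) RNA above 200 nt after removal of ribosomal RNA, kept the strand, and were sequenced from both ends with reads of 76 nt. The design has no second condition, so no test between groups was made. Expected counts over mouse genes summed to 47615328 in replicate 1 and 52890686 in replicate 2. The tissue label was matched by markers: 6 of 6 genes of the steroid-making cortex and 5 of 5 of the catecholamine-making medulla reached 1 TPM in each library, as did all 5 adipocyte and all 4 endothelial markers, 1 of 4 liver markers and 0 of 4 kidney markers. TPM is a level corrected for transcript length and scaled to a fixed total. Whether each library came from a separate pool of animals is not stated in the labels, so the spread between the libraries may be in part technical.

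An intron is cut out of a transcript by the spliceosome. U1 recognises the donor site at its start, usually GT, while SF1 and U2AF recognise the branch point, the pyrimidine tract and the acceptor site at its end, usually AG. In long introns the splice sites are thought to be paired first across the exon between them. In short introns they can be paired across the intron itself, and the intron has to leave room for both sets of factors. Short introns in mammals are typically rich in G and C and common in gene-dense regions.

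The introns printed here range from the most used junction to the shortest coding intron. The sequence is the annotated intron, read from a GENCODE M21 transcript in which it remains part of an exon. Capitals mark the first and last 2 bases.
Cyp21a1 intron 8, mm10 chr17:34802237-34802304, minus strand: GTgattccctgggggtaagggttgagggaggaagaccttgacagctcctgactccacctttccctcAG
Aldoa intron 2, mm10 chr7:126797549-126797643, minus strand: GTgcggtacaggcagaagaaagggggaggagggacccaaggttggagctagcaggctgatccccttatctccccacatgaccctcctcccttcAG
Por intron 14, mm10 chr5:135734529-135734620, plus strand: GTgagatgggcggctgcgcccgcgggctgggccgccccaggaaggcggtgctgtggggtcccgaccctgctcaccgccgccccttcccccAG
Ptbp1 intron 5, mm10 chr10:79859523-79859601, plus strand: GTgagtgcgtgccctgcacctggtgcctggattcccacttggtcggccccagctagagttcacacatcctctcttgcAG
Hnrnph1 intron 10, mm10 chr11:50383740-50383830, plus strand: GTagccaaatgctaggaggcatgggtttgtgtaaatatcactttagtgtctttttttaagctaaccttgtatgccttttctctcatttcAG
Gfra4 intron 2, mm10 chr2:131041342-131041394, minus strand: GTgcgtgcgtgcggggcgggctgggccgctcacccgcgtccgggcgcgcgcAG
Hsf1 intron 11, mm10 chr15:76500197-76500266, plus strand: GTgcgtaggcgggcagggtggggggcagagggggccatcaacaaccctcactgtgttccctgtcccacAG
Cyp21a1, the steroid 21-hydroxylase, held the junction with the most reads of all 94213 passing junctions. Aldoa, the glycolytic aldolase, Por, the electron donor of microsomal P450 enzymes, and the splicing regulator Ptbp1 had introns with GC contents of 60%, 78.3% and 60.8%. Hnrnph1, an RNA-binding protein of G runs, had an intron with only 37.4% GC. The intron of Gfra4, a receptor for the ligand persephin, was the shortest coding one at 53 bases. That of Hsf1, the heat shock transcription factor, spanned 70 bases.

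Across 1367 of the members the annotated intron could be read in this way, and 1364 began with GT and ended with AG, which is 99.8%. The other 3 began with GC and ended with AG. Among them were introns of the nuclear receptor gene Nr1h2 (2805 reads, 1246 in R1 and 1559 in R2) and of Pmf1 (13 reads). None of these 1367 had the AT and AC ends that are one form of the introns of the minor spliceosome. Median GC content was 58.5% (quartiles 53.5% and 63.5%), against 56.4% in 1396 introns of more than 100 to 200 bases that met the same limits. Short annotated introns to which no member was matched had a median GC of 53.1% (n = 1169), and 92.1% of them had GT and AG ends. GTGAGT, a common form of the donor motif, opened 17.3% of the member introns and 14.5% of the longer ones. CAG was the last triplet in 74.9% and TAG in 22.2%. CTNAC, a form of the branch point motif searched on the transcript strand, occurred in 41.8% of member introns and in 47.9% of the longer ones, which offer more positions. At least 3 GGG triplets, the core of the G runs that hnRNP H binds, occurred in 42.8%. In the longer introns, which again offer more positions, the share was 64.1%. These shares describe introns that some annotated transcript keeps, and such introns were 21.9% of the matched members.

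The name of each deposited junction carries a flag A and a flag C of 0 or 1, with no explanation given in the sources used here. Structure and sequence showed what they followed. Of the members with A = 1, 94.9% had the length and neighbours of an annotated intron, against 7.15% of those with A = 0. Every readable junction with C = 1 had GT and AG ends (2757 annotated introns of up to 200 bases and 109 stretches inside exons), and none with C = 0 did (0 of 7 and 0 of 299). The members fell into 6500 with both flags at 1, 367 with only C, 528 with neither and 19 with only A. Of those 19, 17 lay on the minus strand and 2 on the plus strand. Over all passing junctions with only A at 1, 168 lay on the minus and 59 on the plus strand.

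Length set the kinds apart. The median intron was 85 bases long, with quartiles of 79 and 92. Below 60 bases only 7 of 118 junctions had A = 1, and 101 had neither flag. From 60 to 69 bases 40.3% had A = 1, and from 70 to 79 bases 89.2%. In the ranges of 80 to 89 and 90 to 100 bases the shares were 92.0% and 90.7%. Annotated-type junctions therefore became common at about 70 bases, while the junctions with neither flag were spread over every length with a median of 73 bases. At the edges of the rule, 177 junctions had 100 bases and 189 had 101, 19 had 50 bases and 6 had 49. A minimum of 10 reads took 133 junctions with exactly 10 reads and left out 138 with 9. The score limit took 152 junctions at 0.099, of which 56 had A = 1, and left out 92 at 0.185, of which 15 did.

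**Figure D1:**
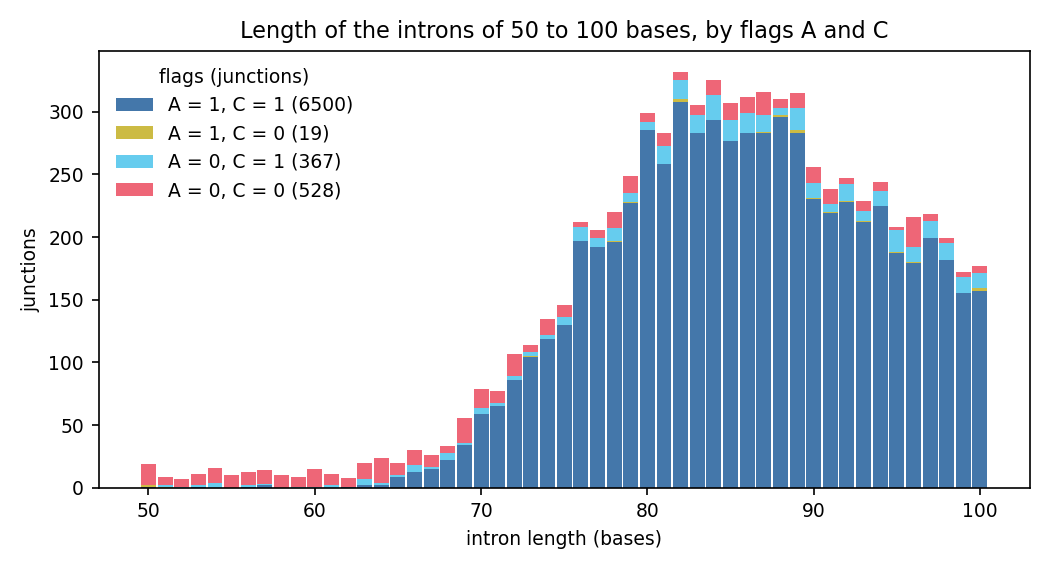
Number of short-intron junctions at each intron length from 50 to 100 bases, stacked by flags A and C (class sizes in brackets). The 6500 junctions with both flags at 1 rise from about 70 bases, and the 528 with neither flag lie at all lengths.

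The shortest introns with an annotated structure were few. A 57-base intron in the 5 prime UTR of Gcdh, the glutaryl-CoA dehydrogenase of lysine breakdown, had 8491 reads (4131 in R1 and 4360 in R2). A 56-base coding intron of Hnrnph1 had 62 reads (23 and 39). Gfra4, printed above, had 32 reads (5 and 27). Only the Gcdh junction was thus well used at this length. A 50-base junction in 2310061I04Rik had 10 reads, and a 50-base junction in Cyp21a1 without the C flag had 64, next to the 28107 reads of the 64-base junction that starts at the same donor. At the upper end, Atp5a1 (33207 reads), a subunit of ATP synthase, the imprinted non-coding RNA gene Meg3 (7624), the fatty acid transport protein gene Slc27a3 (4326), Bckdha (3666) and H2-Ke6 (3616) held the 5 most read matched introns of exactly 100 bases.

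Reads per junction ran from 10 to 334418 with a median of 111, and summed to 4854973. Short introns were 7.87% of the passing junctions and took 13.9% of their reads. Introns of more than 100 to 200 bases also took more than their share, with 10.1% of the junctions and 13.4% of the reads. Junctions of 1000 bases or more were 51.9% of the junctions and took 41.4%. The median was 144 reads for members with both flags, 22 for those with only C and 23 for those with neither. All 50 members with 10000 or more reads had both flags. The 10 members with most reads held 25.4% of the members' reads. Counts are of reads, not of molecules, so they carry amplification error beyond counting error.

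The leading junctions lay in genes of the cortex, of fat and of all cells. Cyp21a1 intron 8 (68 bases, mm9 chr17:34939182-34939249, minus strand) had 126656 reads in R1 and 207762 in R2. Its intron 4 (86 bases) had 97427 and 168704, and intron 5 (88 bases) had 33839 and 49960. In all 3 R2 was the higher count, while intron 1 (64 bases) was higher in R1, with 17515 against 10592. Junctions of 1 transcript therefore differed in their balance of R1 and R2. The next 84-base junction downstream of intron 8 had 73566 reads in R1 and 78631 in R2. It matched more than 1 place, since the pseudogene Cyp21a2-ps nearby has introns of the same lengths, and it was assigned to neither gene. The copy of it by the pseudogene had 32789 reads, and 3 junctions assigned to Cyp21a2-ps had 15594, 13288 and 5909 reads. The sources used here do not say how reads were divided between the gene and this near-identical copy, so both sets are uncertain. Cfd, the adipocyte serine protease adipsin, had 83172 reads in R1 and 39243 in R2 over its 90-base intron 2. The 5 adipocyte markers, Cfd among them, summed to 12264 TPM in replicate 1 and 5262 in replicate 2. Cfd alone gave 9884 and 3984 of this, and each of the other markers was also higher in replicate 1. The part of these markers in this junction was not tested. In whole tissue, fewer cells of a type and less RNA per cell cannot be told apart. Fasn, the fatty acid synthase, had 44114 and 39017 over 85 bases, Map1lc3a, the autophagy protein LC3A, 24671 and 29444 over 84 bases, Actb, cytoplasmic actin, 28169 and 17342 over 87 bases, and Aldoa, printed above, 24865 and 18374 over 95 bases.

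**Figure D2:**
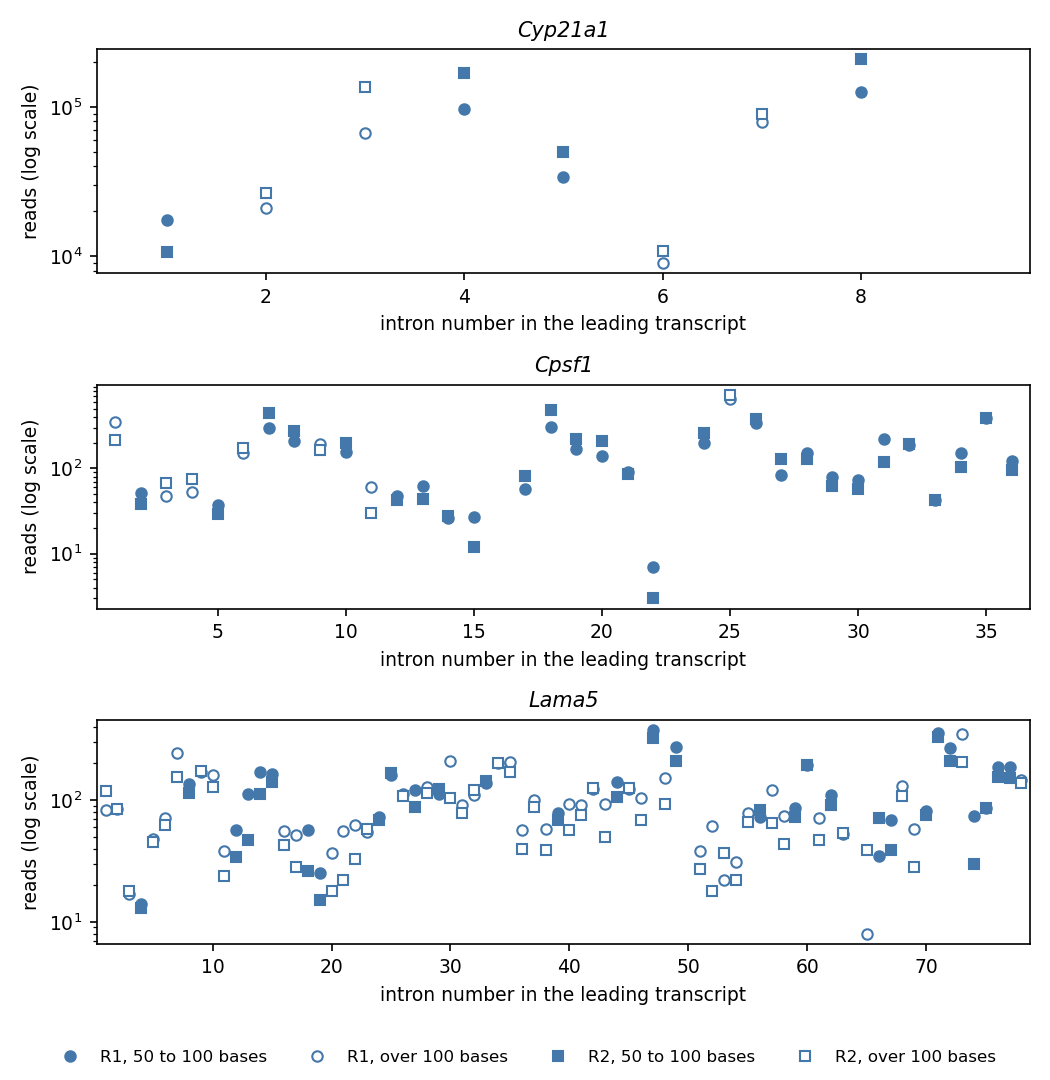
Reads in R1 (circles) and R2 (squares) on a log axis at each uniquely matched intron of the leading transcript of Cyp21a1, Cpsf1 and Lama5, filled for introns of 50 to 100 bases and open for longer ones. Introns without a uniquely matched passing junction have no point, among them the last of Cyp21a1. Reads in Cyp21a1 run from 19776 to 334418 in R1 and R2 together.

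R1 and R2 followed each other over the members, with Pearson's r of 0.929 between their log2 counts (n = 7414, which share 1 table and the same pair of counts). R1 held 47.4% of the members' reads and 47.5% of those of all passing junctions. The SD of log2 R1 over R2 was 1.41 among members of 10 to under 30 reads and 0.45 among those of 1000 or more. Of 3855 members with 100 or more reads, 201 (5.21%) lay beyond 2-fold of the median ratio. Most of the scatter was therefore at low counts. The sources used here do not say which library R1 is. Among 3662 members with 100 or more reads in 1659 host genes, log2 R1 over R2 had an r of 0.491 with the log2 ratio of the host gene's TPM in replicate 1 over replicate 2, and members of 1 gene share that ratio.

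**Figure D3:**
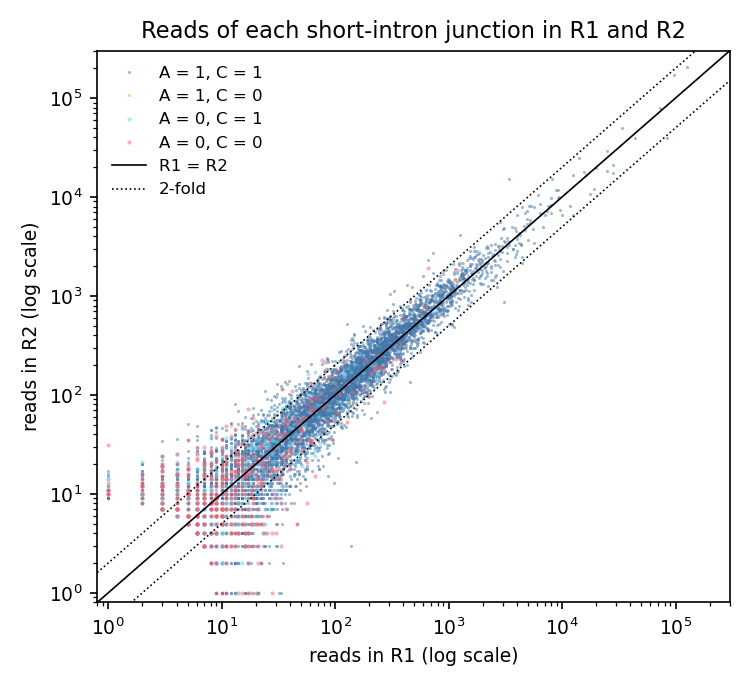
Reads of each of the 7414 short-intron junctions in R1 and R2 on log axes, coloured by flags, with the line of equal counts and dotted lines at 2-fold. High counts lie near the line, and the spread widens below about 100 reads.

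The members with the most uneven counts, among those with 100 or more reads, lay in genes whose TPM leaned the same way. R1 was set beside replicate 1 for this, and in some genes, such as Dpp7, the difference in TPM was slight. Drd4, a dopamine receptor, had 138 reads in R1 and 3 in R2 over its 87-base intron 2, and its TPM was 26.9 in replicate 1 and 1.41 in replicate 2. Tsen54, a subunit of the tRNA splicing endonuclease, had 98 and 13 reads, with 62.4 and 43.6 TPM. Ttc19 had 152 and 21 reads, with 16.2 and 7.24 TPM. The same held for Ypel4 (106 and 23 reads) and Arhgdig (86 and 15 reads), with more TPM in replicate 1 in both. At the other end, complement C3 had 3393 and 15317 reads over its 85-base intron 10 and 128 and 517 over its 91-base intron 6, with 224 and 762 TPM. Complement C3 is made in liver and other tissues, and the 4 liver markers summed to 4.4 and 29.8 TPM. Their part was not tested. The gamma-tubulin gene Tubg1 had 31 and 130 reads with 15.3 and 42.4 TPM, Pelp1 24 and 110 with 25.1 and 39.1 TPM, and Dpp7 48 and 194 with 47.3 and 54.7 TPM. These 10 were chosen for their ratio, and 2 of them lie in C3. Over all 3662 members of the comparison above, 63.9% lay on the same side of the median of both ratios.

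By structure, 6252 members (84.3%, exact 95% interval 83.5 to 85.1%) matched 1 annotated intron of 1 gene, 4787 of them with the neighbouring exon and intron on both sides. A further 128 fitted several genes and 13 several places. The 6252 were 48.1% of the 12989 annotated introns of this length. A gene is called the host of a member matched in this way. The 6252 lay in 2671 host genes, and 99.5% were in protein-coding genes. Of the matched introns, 88.6% lay between coding parts, 1.10% in the 5 prime UTR, 2.02% in the 3 prime UTR and 8.30% in transcripts without a coding part. Short introns were seldom first: 4.34% were the first intron of a transcript with 3 or more, against 5.8% of introns of more than 100 to 200 bases and 14.8% of those of 1000 bases or more, with exact intervals of 3.84 to 4.88%, 5.29 to 6.34% and 14.5 to 15.2%. Compared with both neighbouring introns, a member's reads were higher by a median of 0.13 on the log2 scale (n = 4514), introns of more than 100 to 200 bases by 0.07 and those of 1000 bases or more by 0.11, so members lay near the 0.11 of all passing junctions.

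Members were unevenly spread over the genome. They were 12.7% of passing junctions on chromosome 17, 11.4% on 15, 11.0% on 19, 10.7% on 7 and 10.4% on 8, but 3.61% on 12, 3.66% on 1 and 3.91% on 18. The mitochondrial chromosome, whose genes have no introns, held 4 members among its 5 passing junctions. All 4 had neither flag, spanned 54 to 67 bases and had 16 to 91 reads, and 3 of them overlapped each other.

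Many host genes held several short introns. Of the host genes, 1430 held 1 member and 307 held 5 or more, and 654 had at least 2 members in a row in 1 transcript. Lama5, the alpha-5 chain of basement membrane laminins, held the most at 30, with 27 to 701 reads each (median 206). Cpsf1, the largest subunit of the complex that cuts messenger RNA for polyadenylation, held 27, which was 75% of its 36 matched passing junctions. Its reads ran from 10 to 786, and 11 members followed each other without a break from intron 26 to intron 36. Tbl3, a protein of the small ribosomal subunit processome, had 17 members among 21 junctions. The lipid transporter Abca2 held 23, the phosphatase-like Sbf1 21, the scavenger receptor Stab1 21, the actin crosslinker Flna 21, the laminin chain Lamb2 20, the mechanosensitive channel Piezo1 19, the heparan sulfate proteoglycan Hspg2 18 and the collagen Col5a3 17. Lamb2 was the most read of these per junction (median 590 reads), and Piezo1 the least (121). Members made up 60.6% of the matched passing junctions of Lamb2, but 30.9% of those of Stab1, 26.2% of Col5a3 and 18.9% of Hspg2. In Stab1, a run of 11 members in a row was found among 68 introns, and the longest run in any gene was 12.

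The median level of host genes was 36.7 TPM in replicate 1 and 37.6 in replicate 2, which is 37.2 ± 0.643 TPM (SD, n = 2). Over the 12445 genes that reached 1 TPM in each library the medians were 14.7 and 15.1 TPM, and 21% of these genes hosted a member. A junction needs reads to meet the limits, so the rule itself favours genes with a high level.

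Of all genes that reached 1 TPM in each library, 21% hosted a member. Among 20 genes of steroid production, which all reached 1 TPM in each library, 7 hosted 15 members. Besides Cyp21a1, with 14483 and 19341 TPM, they included Fdxr, the adrenodoxin reductase (80-base intron 9, 5654 reads in R1 and 7870 in R2), and Por, with 4 members of 12219, 2026, 1476 and 1027 reads. Cyp11b1, the 11-beta-hydroxylase of the zona fasciculata, and Cyp11b2, the aldosterone synthase, each had an 87-base intron 7, with 4034 and 538 reads. These neighbouring paralogs are similar, so reads could be divided wrongly between them. Stard3, a sterol carrier of late endosomes, had 167 reads in R1 and 137 in R2 over 76 bases. Star, Cyp11a1 and the other 11 genes of the list had no member matched to an annotated intron. Among these 11, Fdx1, the electron carrier adrenodoxin, held 5 members inside an exon, all with neither flag, with 180, 152, 39, 22 and 18 reads.

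Of 16 chromaffin genes, which all reached 1 TPM in each library, 3 hosted 4 members. These 3 are a share near the 21% of all genes at that level that hosted one. Th, the tyrosine hydroxylase that begins catecholamine synthesis, had a 70-base intron 7 with 4025 reads in R1 and 4036 in R2. Slc18a1, a vesicular monoamine transporter, had 58 and 40 reads over 77 bases. Its relative Slc18a2 had 33 and 8 over 90 bases and 28 and 7 over 78 bases, in 2 neighbouring introns, with 8.33 and 4.02 TPM. Both of its junctions had more reads in R1.

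Of 26 genes for factors that recognise introns, which all reached 1 TPM in each library, 13 hosted 32 members and 13 hosted none, beside the 21% of genes at that level that hosted one. Prpf8, the protein at the centre of the spliceosome, had 6 with 59 to 506 reads, and Sf3a2, a part of the U2 particle, had 5 with 24 to 378 reads. Ptbp1 had 4, with 2783, 1402, 723 and 219 reads, and Puf60, which binds pyrimidine tracts, had 2, with 1758 and 727. Hnrnph1 and Sf3b1, the branch point subunit, had 3 each, those of Sf3b1 with 19 to 27 reads. Snrnp70 and Sf3b2 had 2 each, and U2af1, U2af2, Sf3a1, Sf3a3 and Sf3b3 had 1. None of the 8 listed proteins of the minor spliceosome, of which 7 reached 1 TPM in each library, hosted a member. The lists are small and hold genes of unequal length and intron number, so no difference between them is drawn.

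The deposited contigs, stretches of continuous RNA signal on 1 strand, covered many short introns whole. A contig of the same strand held the whole intron of 64.3% of members (63.2 to 65.4%), against 49.5% of introns of more than 100 to 200 bases and 1.29% of those of 1000 bases or more. A contig of the opposite strand did so for 2.98%. Among members with both flags the share was 60.6% and rose with reads, from 34.8% at 10 to 44 reads to 84.4% at 444 reads or more, in the lowest and highest of 4 groups of like size. Contigs on 1 strand never lay closer together than 11 bases, and the sources used here do not say whether the tool joined across gaps. Coverage moved with length and with reads, and their part in the differences between classes was not tested.

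**Figure D4:**
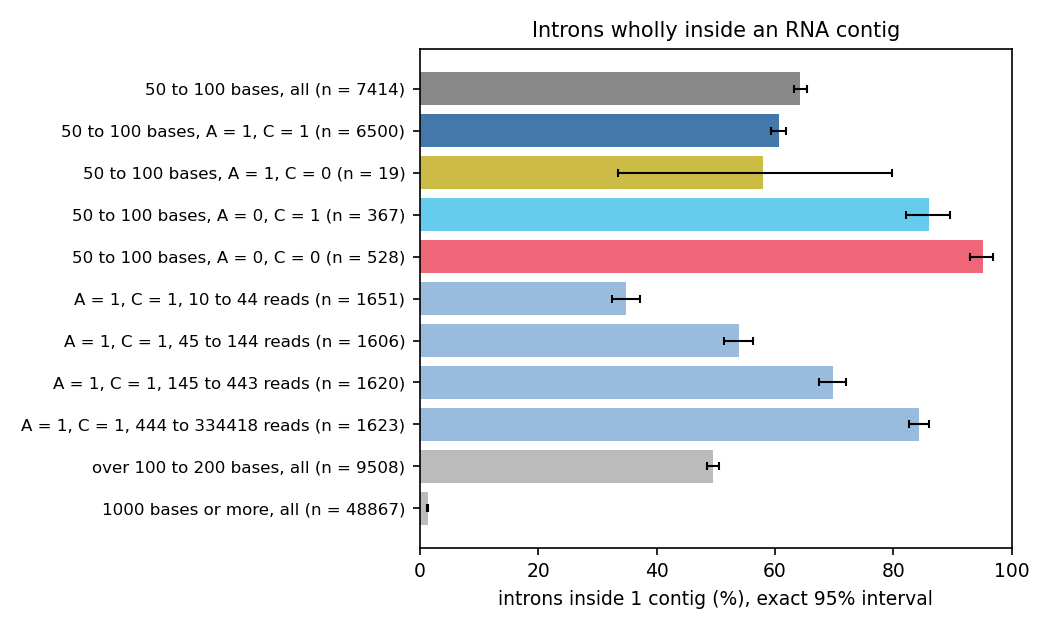
Percent of introns that lie wholly inside 1 contig of the same strand, by flags, by number of reads among junctions with both flags, and for longer introns, with exact 95% intervals (Clopper-Pearson, counting error only). Coverage is 34.8% at 10 to 44 reads and 84.4% at 444 or more, and 1.29% for introns of 1000 bases or more.

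The transcript tables gave a separate view of the same introns. For each matched member the TPM of the host gene's transcripts that splice out the intron was taken as a percent of the gene's TPM. Both sums cover only GENCODE M21 transcripts that were also quantified under annotation M4. TPM on transcripts that M21 lacks is left out. The median over members was 93.0% in replicate 1 and 93.4% in replicate 2 (93.2% ± 0.278, SD, n = 2). In both libraries 2177 of 6234 members had 100%, and 1093 had under 50%. Transcripts with an exon over the whole intron had no TPM in either library for 85.4% of members, for 88.2% of introns of more than 100 to 200 bases and for 98.8% of those of 1000 bases or more. For 164 members, such transcripts exceeded a share of 20% of gene TPM in replicate 1 and in replicate 2 (2.63%), for 2.27% of the middle class and for 0.127% of the long one. Of these 164, 148 (90.2%) lay inside a contig, against 57.4% of 5326 members with no such TPM.

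In 45 members transcripts with an exon over the intron made up more than 50% of the gene's TPM in each library, and 38 of them lay inside a contig. They are named here by their values. In Gfra4, the transcripts that keep the 53 bases printed above held 97.8% and 91.5% of the gene's TPM, and those that splice it 2.24% and 8.50%. In Mrps26, a protein of the mitochondrial ribosome, an exon lay over an 80-base intron with 136 reads at 99.2% and 99.3%. Ubap2, a ubiquitin-associated protein, had 74.9% and 76.9% over its last intron of 87 bases, which had 785 reads in R1 and 774 in R2. In Slc1a5, a glutamine transporter, the values were 55.5% and 64.2% over 71 bases, with 557 and 274 reads. Timm17b, a subunit of the mitochondrial import channel, had 57.0% and 56.6% over 81 bases, with 972 and 915 reads. TPM of transcripts is estimated by the authors from reads that transcripts share, and the depth behind each share is not known.

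At the low end, 50 members had 0% of the host gene's TPM on a transcript that splices them. For all 50 no GENCODE M21 transcript with the intron was among those quantified, so the percent cannot show their use. Transcripts of annotation M4 that M21 lacks were not examined. Of the 50, 12 had A = 1, the Hsf1 and Slc22a17 introns named below among them. The most read was a 99-base intron of Nrbp2, a pseudokinase, with 4650 reads, A = 0 and C = 1, and introns of 95 and 68 bases in the same gene had 430 and 315. Hsf1 introns 10 and 11 had 1188 and 844 reads (546 and 398 in R1, 642 and 446 in R2), and Slc22a17 intron 2 had 767. The other members among the 10 most read of this kind lay in Zswim8 (343 reads), Nup98 (307), Fdps (222) and Rce1 (156). Several well-used short introns were therefore in no M21 transcript that was quantified.

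Fewer short than long introns shared a splice site with another junction. A site was shared with another passing junction by 13.4% of members (12.6 to 14.2%), by 17.2% of introns of more than 100 to 200 bases (16.4 to 17.9%) and by 21.5% of those of 1000 bases or more (21.1 to 21.9%). These shares fell to 8.44%, 12% and 16.3% at a score limit of 0.01 and to 5.19%, 8.02% and 12.4% at a minimum of 50 reads, in the same order of classes. Of members the donor was shared by 8.56% and the acceptor by 5.68%. The share was 8.78% among members with both flags, 74.9% among those with only C and 26.9% among those with neither. Of 545 members with C = 1 that shared a donor with another junction with C = 1, 103 (18.9%) had the nearest other acceptor 3 bases away, the spacing of tandem acceptor sites. Distances that are a multiple of 3 made up 45.9%. Of 311 that shared an acceptor, 28 (9%) had the nearest other donor 4 bases away, the spacing at which GT recurs in the donor motif, and multiples of 3 were 28.9%.

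Hnrnpab, an RNA-binding protein, gave an example of the first kind. Its 80-base junction had 16932 reads, and one from the same donor to an acceptor 3 bases on had 409. Mrps24, a mitochondrial ribosomal protein, gave an example of the second. Its 68-base junction had 12488 reads in R1 and 16589 in R2, and junctions to the same acceptor from donors 4 bases and 21 bases away had 86 and 353. The minor junctions were far below the main one in both genes. A further Mrps24 junction, shifted by 1 base at the acceptor and with neither flag, had 16 reads in R1 and 4 in R2.

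Junctions with neither flag often lay inside exons. Counting along the exon from matched splice sites placed 299 junctions with C = 0 and 109 with C = 1 inside a single exon. Of each kind, 44 were placed from both ends of the exon, and the others from 1 end only. Some of the coding ones with C = 0 are printed because they show what the 2 ends of such a stretch share. Each line gives 20 bases before the skipped stretch, the stretch and 20 bases after it, from a GENCODE M21 transcript. Capitals mark the bases that stand at both ends, so that the break could be set at any of them.
Dlk1, mm9 chr12:110698063-110698128, plus strand: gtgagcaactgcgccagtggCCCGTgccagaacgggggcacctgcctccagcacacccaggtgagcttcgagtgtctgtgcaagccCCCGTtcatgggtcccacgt
Fads6, mm9 chr11:115145561-115145610, minus strand: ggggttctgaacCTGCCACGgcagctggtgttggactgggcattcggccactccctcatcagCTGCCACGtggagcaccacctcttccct
Mlycd, mm9 chr8:121919095-121919148, plus strand: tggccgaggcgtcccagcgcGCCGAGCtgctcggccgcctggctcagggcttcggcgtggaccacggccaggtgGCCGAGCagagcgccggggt
Dmwd, mm9 chr7:19661801-19661872, plus strand: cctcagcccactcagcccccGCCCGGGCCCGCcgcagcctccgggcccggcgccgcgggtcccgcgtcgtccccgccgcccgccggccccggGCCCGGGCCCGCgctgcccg
Pkdcc, mm9 chr17:83615017-83615110, plus strand: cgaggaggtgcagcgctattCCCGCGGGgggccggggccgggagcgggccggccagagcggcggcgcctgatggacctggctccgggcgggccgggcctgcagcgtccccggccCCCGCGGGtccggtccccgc
Dlk1, a transmembrane protein with EGF repeats, had 701 reads over 66 bases (370 in R1 and 331 in R2), between copies of CCCGT. Fads6, a fatty acid desaturase-like protein, had 376 reads over 50 bases (209 and 167), between copies of CTGCCACG. Mlycd, the malonyl-CoA decarboxylase, had 425 reads over 54 bases (232 and 193), and Dmwd had 600 over 72 bases (369 and 231), between repeats of 7 and 12 bases. None of these stretches began with GT and ended with AG. Pkdcc, a secreted kinase, had 260 reads over 94 bases (83 and 177), and 3 more members overlapped it with 47, 35 and 18 reads. In Igfbp3, a binding protein of insulin-like growth factors, 4 members of 94 to 100 bases lay on 1 stretch with 352, 138, 38 and 21 reads, so members of this kind are not all separate stretches.

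Over all 299 placed junctions with C = 0, in 186 genes, the repeat at the ends had a median of 4 bases, and 183 (61.2%) had 4 or more. Of the 109 with C = 1 the median was 2 and 28.4% had 4 or more. Of the 1364 annotated introns with C = 1 the median was also 2, and 20% had 4 or more. A repeat of 6 or more bases was found in 32.1%, 15.6% and 3.23%. Median GC content was 70.8% in the stretches with C = 0 and 60.8% in those with C = 1, against 58.5% in the annotated introns. A multiple of 3 was the length of 40.1% of the stretches with C = 0, of 40.4% of those with C = 1 and of 32.5% of the annotated introns. Among the 44 of each kind placed from both ends, multiples of 3 were 29.5% with C = 0 and 45.5% with C = 1. Their median GC was 65% and 61.7%, and 59.1% and 25% had a repeat of 4 or more bases. Reads were low in the stretches, with medians of 23 over all 299 with C = 0 and 22 over all 109 with C = 1. The annotated introns had a median of 194. Whole coverage by a contig was nearly general among members with neither flag, at 95.1% (92.9 to 96.8%). Of these 528 members, 298 had been placed inside an exon.

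**Figure D5:**
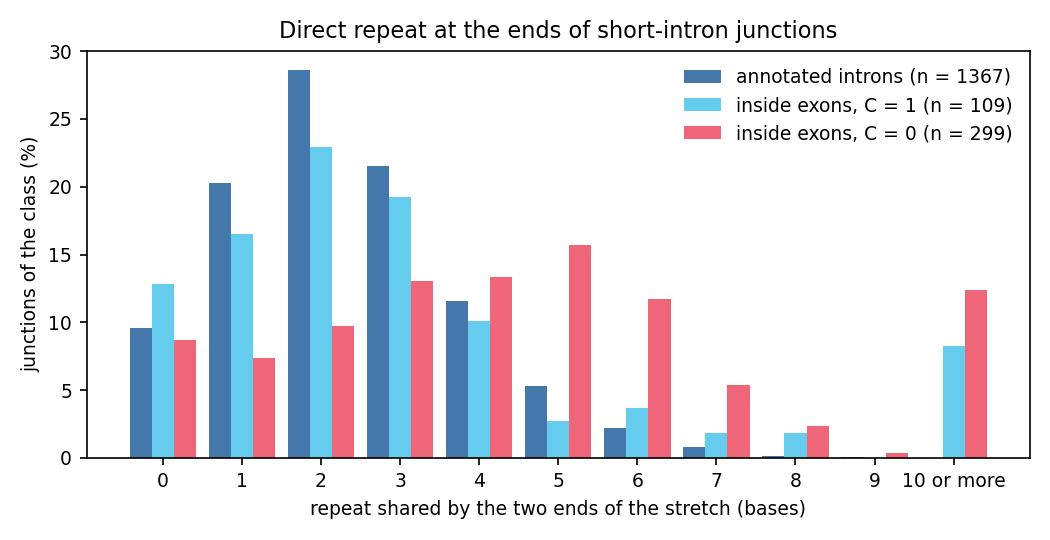
Percent of junctions by the length of the direct repeat shared by both ends, for 1367 members with a readable annotated intron, 109 placed inside exons with C = 1 and 299 with C = 0. Repeats of 4 or more bases make up 61.2% of the last class.

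A smaller set of members with A = 0 lay next to a junction with A = 1, both ends within 10 bases. Of the 528 with C = 0 this held for 65, and their reads were a median of 0.0349% of the neighbour's, whose median was 48728 reads. Of the 367 with C = 1 it held for 113, with a median of 4.17% of the neighbour's reads, whose median was 707. The first kind thus stood beside very deep junctions such as those of Cyp21a1, and the second beside less deep ones. The read minimum shapes this, since a member at 0.0349% can reach 10 reads only beside a very deep junction. Where several neighbours were in reach, the most read one was taken. Members with both flags had a median of 144 reads and an upper quartile of 443, so the neighbours of both kinds were deeper than most. Whether misaligned reads make up either kind was not tested.

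The most read members with neither flag were a junction of 84 bases on chromosome 11 with 1176 reads in R1 and 1834 in R2, one inside an exon of Man2c1, an alpha-mannosidase, with 1143 and 1458 over 93 bases, and one of 63 bases on chromosome 16 with 660 and 1901. On chromosome 6, junctions of 54 and 99 bases that end at the same base had 1390 and 978 reads. For 229 members with neither flag no annotated intron or exon was found by structure.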

How the data were processed

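Both libraries, replicates of 1 group, were used. The deposited junction table (mm9) gives a read count per junction, which equals R1 plus R2 of its name field in every row, and the authors' score. That table also has a whole number in a last column whose meaning is not stated, and each of its values has 1 score, so a score of 0.1 or less is the same as 4 or more there. Low scores were taken as the better ones. The deposited contig table (mm9) has a level signal and the authors' score. Per the file headers and the deposited readme files, the gene and transcript tables hold the authors' expected count, summed here only for depth, and the authors' TPM, from alignments to the mm10 transcriptome with annotation M4. No aligner, caller or version is named in the sources used here.

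No coordinates were converted between builds. A junction was matched to a GENCODE M21 intron (GRCm38) by strand, chromosome, intron length and the lengths of the next exon (up to 10000 bases) and next intron on 1 or both sides, with 1 place and 1 gene required. Matches out of register with their gene by more than 1000 bases were dropped, 4 of them members. With strands flipped, 9 members (0.121%) matched. The match and the repeat search were checked on simulated data. Sequences come from GENCODE M21 transcripts, for exons or introns kept in an exon. Intervals are exact (Clopper-Pearson, 95%) and cover counting error only.

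The members, the gene lists and the rule for named junctions were chosen with earlier results of these data known. The rule takes the 10 members with most reads, the 5 shortest and 5 longest matched introns, the 10 host genes with most members, the 5 highest and 5 lowest shares of R1 and the 10 lowest shares of spliced TPM (both at 100 or more reads), introns with other ends than GT and AG, members that share a site, and list genes. Junctions inside exons, those with neither flag and those with an exon over them were added after their values were seen. Some introns and genes that the rule takes are not reported here. Alternatives varied the limits, the contig rule, the match and the libraries. Python 3.11.15, pandas 2.3.3, numpy 2.4.6 and scipy 1.17.1 were used.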

Additional observations from a re-analysis of the deposited data

How the results depend on the processing

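No paired analysis was possible because there is 1 group and no test. Of 43 alternatives over 13 results, 18 kept the value within its interval, SD or 1.5 times, and 25 moved it. With a score limit of 0.01 the median reads were 153, contig coverage 65.5%, shared sites 8.44%, matched introns 89.8% and the median host level 41.6 TPM. With a minimum of 50 reads there were 4895 junctions with a median of 252 reads, contig coverage was 71.1%, shared sites 5.19%, matched introns 94.0%, the median GC 59.2%, the median host level 51.3 TPM and the median spliced share of host TPM 93.6%. These limits keep fewer junctions with few reads. Coverage was 76.7% where 50% of the intron inside contigs sufficed and 65.5% with contigs of either strand. For introns of more than 100 to 200 bases shared sites were 12% with that score limit and 8.02% with that minimum, and for those of 1000 bases or more 16.3% and 12.4%, alternatives chosen after seeing the data. Shared sites of members were 18.2% where the other junction needed only a read in R1 and in R2. With a match on both sides, 64.6% were matched, the median host level was 44.3 TPM and the spliced share 91.8%. With host genes of at least 1 TPM in each library these were 38.6 TPM and 92.8%. Leaving out either library gave 36.7 to 37.6 TPM and 93.0 to 93.4%. Members of few reads are the least precise, and an unmatched junction may still be an annotated intron whose neighbours were not deep enough.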
